A study of Mus musculus with 4 samples.

Results

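The genes described here encode the machinery that folds proteins and that responds when folding fails: the cytosolic heat shock chaperones, the mitochondrial chaperones, and the sensors, transcription factors, chaperones and degradation factors of the unfolded protein response (UPR) of the endoplasmic reticulum (ER). They were chosen by name from a list of 41 genes, and each gene was read from the probe set that carries its symbol alone. Where a gene had several such probe sets, the brightest over the 4 arrays was used. A value was found for 38 of the 41, out of 19938 named genes in the series; Hsf1, Hspa1b and Hsp90ab1 were not analysed here. All 38 reached the floor of 4.26 on the log2 scale, the median over all probe sets, on at least 1 array. Levels on an array depend on the probes, so no gene's level is set against another's below.

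RNA came from cells labelled as microglia, the macrophages of the brain, and was hybridised to Affymetrix Mouse Gene 1.0 ST arrays. Wild-type cells of strain C57Bl were measured without an agent and after 3 h of lipopolysaccharide (LPS), the bacterial cell wall component sensed by TLR4. Cells labelled Bid-/- were measured in the same 2 states; Bid is a BH3-only member of the Bcl-2 family, and the sources used here do not give the strain or construct behind this label, nor age and sex. Each group is 1 array, so no difference between 2 arrays can be checked against replicates, and none carries a p-value. Values of a gene are given below in a fixed order: WT without and then with LPS, followed by the Bid-/- label without and then with LPS.

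Chaperones of the HSP70, HSP90, HSP40 and HSP60 classes hold or fold other proteins, and in the cytosol many of them are induced by the heat shock factor Hsf1. In the ER, unfolded proteins are sensed by Ern1 (IRE1), Eif2ak3 (PERK) and Atf6. Ern1 splices Xbp1 mRNA, PERK phosphorylates the translation factor eIF2 alpha and so favours translation of Atf4, and Atf6 is cut to release a transcription factor. These branches raise ER chaperones, the factors of ER-associated degradation (ERAD), and targets of the integrated stress response such as Ddit3 (CHOP). Macrophages load the ER with secreted cytokines after LPS, and much of this control is at the protein or splicing level, which a sum over the transcript does not read.

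Bid itself read 5.69, 5.02, 5.53 and 5.97, so the arrays labelled Bid-/- were 0.16 below WT without LPS and 0.95 above it with LPS. The sources used here do not say where its probes lie against the deleted part, so this probe set may check nothing, and each direction between genotypes below rests on the labels. Strain and culture cannot be told apart from the label. Of 15 microglia markers with a value, 12 or 13 reached the floor on each array; Gpr34 and Siglech reached it on none. The 10 fibroblast and mural cell markers summed, on the linear scale, to 412.2 on the WT control array and to 804.5, 851.3 and 781.5 on the other 3, with 8 or 9 at the floor. Neuron markers reached the floor for 1 gene of 8. In bulk RNA, fewer cells of a type and less RNA per cell cannot be told apart.

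LPS moved 2 of the 38 genes past the test, in opposite directions, and both act on eIF2 alpha. Ppp1r15a, which encodes GADD34, the subunit that directs a phosphatase to eIF2 alpha, rose with LPS under both labels. Eif2ak3, which encodes the kinase PERK that phosphorylates eIF2 alpha, fell under both. The 36 other members did not pass. Under quantile normalization, and with the intensity trend removed alone or with the gene span trend, Hspa1a and Syvn1 also passed as higher, and Trib3 as lower; Pdia4 passed as lower in the first and last of these.

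Ppp1r15a read 5.69, 7.62, 6.27 and 7.59. The LPS arrays stood above both control arrays, and the LPS arrays were nearly level with each other. This is 3.81-fold higher in WT and 2.50-fold higher under the Bid-/- label (SE of the mean log2 change 0.20, limma adjusted p = 0.045). Eif2ak3 read 5.69, 4.44, 5.93 and 4.89, so that both LPS arrays were below both controls. It was 2.38-fold lower in WT and 2.06-fold lower under the Bid-/- label (SE of the mean log2 change 0.12, limma adjusted p = 0.0347). The test is an additive fit over all 4 arrays that asks for a difference shared by both labels. With no floor on low values the adjusted p of Ppp1r15a was 0.127 and that of Eif2ak3 0.11, and without an intensity trend in the variance that of Ppp1r15a was 0.0515; with a floor of 6 Eif2ak3 is not tested.

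Among all 11326 genes in that fit, 1.68% rose and 1.56% fell with LPS. With 1 of 38 members in each direction, the share of members that passed, 2.63% each way, is near this background. Counted by size alone, 1 member was at least 1.5-fold higher with LPS in WT, against 5.8% of all genes, and 2 were at least 1.5-fold lower, against 11.1%. On the arrays labelled Bid-/- the same counts were 1 higher, against 6.88%, and 4 lower, against 10.4%. Members 1.5-fold or more lower in WT were Eif2ak3 and Pdia4; under the Bid-/- label they were those genes with Sdf2l1 and Trib3. Most calls over all genes were on the lower side: 34.4% of those in WT were higher, or 40.1% to 53.1% under the 3 other scalings, and 39.9% under the Bid-/- label, or 49.8% to 61.3%. Neither label gave a larger share of these genes in either direction than of all genes, apart from 10.5% against 10.4% for the lower genes under the Bid-/- label.

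**Figure D1:**
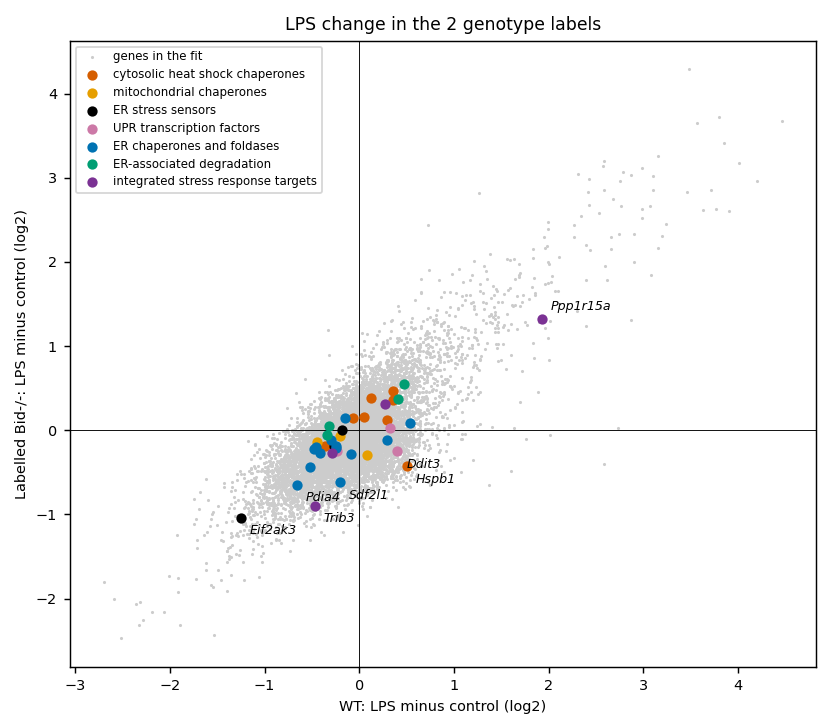
LPS minus control on the log2 scale in WT (horizontal) and under the Bid-/- label (vertical), with 1 array per group; grey points are the 11326 genes in the fit and coloured points the 38 members by role. Ppp1r15a (1.93 and 1.32) and Eif2ak3 (-1.25 and -1.04) stand apart from the other members, which lie nearer 0.

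**Figure D2:**
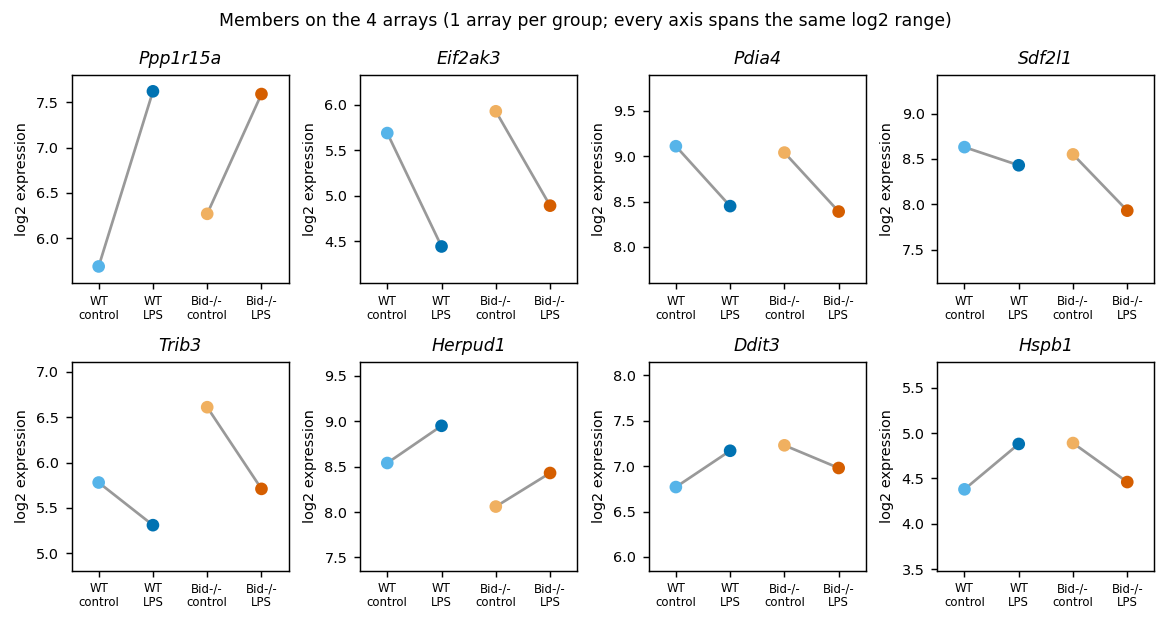
Deposited log2 expression of 8 members on the 4 arrays, 1 point per array, with a line from control to LPS within each label; every vertical axis spans the same range. Ppp1r15a is higher and Eif2ak3 and Pdia4 are lower with LPS under both labels, while Ddit3 and Hspb1 are higher in WT and lower under the Bid-/- label.

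Of the other ER stress sensors, neither passed the test. Ern1, the kinase and ribonuclease IRE1, read 5.88, 5.70, 6.26 and 6.26. Its LPS differences were -0.18 in WT and 0.00 under the Bid-/- label. Atf6, the sensor that is itself a transcription factor, read 7.78, 7.51, 7.63 and 7.44, differences of -0.27 and -0.19. Eif2ak3 was thus the 1 sensor of 3 with a difference of 1.5-fold or more.

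The transcription factors of the response did not pass either. Xbp1, the target of IRE1 splicing, was 0.24 lower with LPS in WT and 0.25 lower under the Bid-/- label; the probe set sums over the spliced and unspliced forms. Atf4, whose protein is set mainly by translation, was 0.32 higher in WT and 0.03 higher under the Bid-/- label. Ddit3, the pro-apoptotic factor CHOP, read 6.77, 7.17, 7.23 and 6.98. It was 0.40 higher with LPS in WT and 0.25 lower under the Bid-/- label, from a control that started 0.46 above the WT control.

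Among targets of the integrated stress response only Ppp1r15a passed. Trib3, a pseudokinase induced by ATF4 and CHOP, read 5.78, 5.31, 6.61 and 5.71. It was lower with LPS under both labels, by 0.47 and 0.90 on the log2 scale (limma adjusted p = 0.0861), with the opposite sign to Ppp1r15a in both. Chac1, an enzyme that degrades glutathione, was 0.27 and 0.31 higher with LPS from 4.99 and 5.01. Asns, asparagine synthetase, was 0.29 and 0.27 lower. Of these 4 ATF4 targets 2 were therefore above 0 and 2 below it, the same 2 under both labels.

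The ER chaperones and foldases were mostly lower with LPS, each by less than the test could call. Of 13 genes 11 were below 0 in WT and 11 under the Bid-/- label, with medians of -0.25 and -0.21, where all genes had medians of -0.05 and -0.10 and 54.7% and 60.1% of them below 0. The medians lay between -0.36 and -0.25 in WT, and between -0.21 and -0.07 under the Bid-/- label, over the deposited scale and 3 scalings (quantile, intensity trend removed, intensity and gene span trends removed). After removal of the intensity trend 9 of 13 were below 0 under the Bid-/- label. None of the 13 passed, and the smallest adjusted p was that of Pdia4.

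Pdia4 (ERp72), a disulfide isomerase, read 9.11, 8.45, 9.04 and 8.39. Both LPS arrays lay below both controls and the differences were nearly equal, -0.66 and -0.65 (limma adjusted p = 0.0815). A further probe set with this symbol, below the floor at 3.97 to 4.19, differed by 0.06 and 0.22; the mean of the pair of probe sets gives -0.30 and -0.22. Dnajc3 (p58IPK), an ER co-chaperone that also binds PERK, read 8.84, 8.32, 8.78 and 8.34, differences of -0.52 and -0.44. The isomerases Pdia3 (-0.46 and -0.20) and Pdia6 (-0.42 and -0.27) were lower under both labels, as was Hyou1, the ER member of the HSP110 class (-0.48 and -0.22).

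The lectin chaperones, which hold glycoproteins, differed by similar amounts: Calr by -0.25 and -0.19 and Canx by -0.25 and -0.21. Hsp90b1 (GRP94), the ER form of HSP90, differed by -0.30 and -0.12. Hspa5 (BiP), the HSP70 of the ER and the usual marker of the UPR, read 10.92, 10.77, 10.86 and 11.00, so that it was 0.15 lower with LPS in WT and 0.14 higher under the Bid-/- label. Sdf2l1, a BiP partner, read 8.63, 8.43, 8.55 and 7.93 and was lowest on the labelled Bid-/- LPS array, 1.54-fold below its control. Creld2, an ER protein induced with BiP, was lower by 0.09 and 0.28.

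Dnajb9 and Manf were the 2 of the 13 above 0 in WT. Dnajb9 (ERdj4), a BiP co-chaperone, read 7.14, 7.68, 7.19 and 7.28: 0.54 higher in WT and 0.09 under the Bid-/- label. Manf, a secreted ER stress protein, read 7.71, 8.00, 7.56 and 7.44, which is 0.29 higher in WT and 0.12 lower under the Bid-/- label.

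The ERAD genes differed in sign. Herpud1, a membrane scaffold of the degradation complex, read 8.54, 8.95, 8.06 and 8.43, 0.41 and 0.37 higher with LPS. Syvn1 (HRD1), the ubiquitin ligase of that complex, read 6.63, 7.10, 6.63 and 7.18, 0.47 and 0.55 higher (limma adjusted p = 0.105). Sel1l, the partner that stabilises HRD1, differed by -0.32 and 0.05, and Edem1, a lectin that delivers glycoproteins to it, by -0.34 and -0.06. Thus 2 of 4 were above 0 under both labels, and none of the 4 passed.

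Promoter letters give a feature of these genes that the choice by name did not use. The table of RefSeq promoters (GRCm38.p6, from 250 bases before to 50 after a start) held 33 of the 41 genes, with 38 windows. It was searched on both strands for the ER stress response element, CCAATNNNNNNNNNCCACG, the site through which ATF6 and XBP1 raise ER chaperones. The element was in 8 of the 38 member windows and in 0.119% of all 32851 windows; the element was defined on genes of this kind, so the count is a description. The 8 genes were Calr, Canx, Creld2, Dnajc3, Hsp90b1, Hspa5, Pdia6 and Syvn1, so that 7 of the 11 ER chaperones with a window held it. A second form, ATTGGNCCACG, was in Herpud1 alone among members and in 0.0365% of windows. To set chaperone genes beside the 2 ERAD genes that were higher with LPS, 3 of the former and both of the latter are printed 5′ to 3′ on the strand of the gene, with the fixed letters of the element in capitals.

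Hspa5, chr2:34772010-34772058, + strand, element ending 46 bases before the start: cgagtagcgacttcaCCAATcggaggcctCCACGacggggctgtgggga

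Dnajc3, chr14:118937812-118937860, + strand, 86 bases before the start: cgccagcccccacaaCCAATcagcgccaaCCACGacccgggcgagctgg

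Pdia6, chr12:17266476-17266524, + strand, 79 bases before the start: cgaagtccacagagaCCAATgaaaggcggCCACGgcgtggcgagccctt

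Syvn1, chr19:6046517-6046565, + strand, 25 bases before the start: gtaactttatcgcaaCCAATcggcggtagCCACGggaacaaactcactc

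Herpud1, second form, chr8:94386362-94386402, + strand, 41 bases before the start: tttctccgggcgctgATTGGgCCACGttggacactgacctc

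Of the 8 genes with the element, 7 were lower with LPS in WT and 6 under both labels. Of all genes, 54.7% were below 0 in WT and 60.1% under the Bid-/- label; the share below 0 under both was not counted. The 6 lower under both labels were Dnajc3 (-0.52 and -0.44), Pdia6 (-0.42 and -0.27), Calr (-0.25 and -0.19), Canx (-0.25 and -0.21), Hsp90b1 (-0.30 and -0.12) and Creld2 (-0.09 and -0.28). Hspa5 (-0.15 and 0.14) differed in sign, and Syvn1 (0.47 and 0.55) was higher under both. Of the 4 ER chaperones with a window and no such element, 3 were lower under both labels; whether the element goes with the LPS difference was not tested. Pdia4, with the lowest LPS differences of the ER chaperones, held neither form in its window, which says only that these letters are not there.

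A core of the amino acid response element bound by ATF4, TGATGNAA, was in 4 member windows (Asns, Chac1, Herpud1 and Trib3) and in 3.97% of all windows. Asns and Chac1 are shown because they hold the core and had LPS differences of opposite sign, -0.29 and -0.27 against 0.27 and 0.31. Of the other 2 genes with the core, Herpud1 was higher under both labels (0.41 and 0.37) and Trib3 lower under both (-0.47 and -0.90).

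Asns, chr6:7693210-7693247, - strand, core ending 15 bases before the start: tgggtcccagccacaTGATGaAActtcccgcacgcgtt

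Chac1, chr2:119351034-119351071, + strand, core on the opposite strand, 185 bases before the start: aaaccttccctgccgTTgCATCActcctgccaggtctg

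The cytosolic heat shock genes were slightly higher with LPS as a group, and none passed. Of 8 with a value 6 were above 0 under each label. Hspb1 was among the 6 only in WT, and Hspa8 only under the Bid-/- label. The 8 had medians of 0.21 in WT and 0.15 under the Bid-/- label. All genes had medians of -0.05 and -0.10, with 54.7% and 60.1% below 0. Over 3 other scalings the medians of the 8 ran from 0.18 to 0.30 and from 0.20 to 0.29, with 5 above 0 in WT after quantile normalization. The further list of chaperones and co-chaperones, most but not all of them cytosolic, did not share this. Its medians were -0.04 in WT (18 of 31 below 0) and -0.08 under the Bid-/- label (17 of 32). Under the other scalings they were -0.05 to 0.02 and -0.04 to 0.06. Hspa1a, the stress-inducible HSP70, read 5.62, 5.98, 5.59 and 6.06, with both LPS arrays above both controls (0.36 and 0.47, limma adjusted p = 0.115). Hspa1a and Hspa1b are near-identical copies, so a probe set for one may read both. Dnajb1, the HSP40 that works with it, read 7.63, 7.99, 7.59 and 7.95, the same difference of 0.36 under both labels. Bag3, a co-chaperone that links HSP70 to autophagy, was higher by 0.29 and 0.12.

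The abundant constitutive chaperones Hspa8 and Hsp90aa1 differed little. Hspa8, the constitutive HSP70, read 11.41, 11.34, 11.29 and 11.43, differences of -0.07 and 0.14, and its other probe sets gave -0.15 to -0.12 and 0.05 to 0.10. Hsp90aa1 was 0.05 and 0.16 higher and its other probe sets gave 0.01 to 0.18. Dnaja1, an HSP40, was 0.12 and 0.38 higher, or 0.52 and 0.59 on its dimmer probe set, so its probe sets disagree in size. On the dimmer probe set it would count as 1.5-fold higher under the Bid-/- label (0.59 against a threshold of 0.585). Near-identical copies of these genes elsewhere in the genome could share reads of the probes. Hsph1, the cytosolic HSP110 that exchanges nucleotide on HSP70, had the opposite sign: it read 8.15, 7.79, 8.43 and 8.24, which is 0.36 and 0.19 lower with LPS.

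Hspb1, the small heat shock protein HSP27, had the largest gap between the labels. It read 4.38, 4.88, 4.89 and 4.46, so it was 0.50 higher with LPS in WT and 0.43 lower under the Bid-/- label. Its other probe set gave 0.47 and -0.43. All 4 values lie close to the floor of 4.26. Serpinh1, the collagen chaperone HSP47, read 4.43, 5.18, 5.55 and 4.90, and the muscle and fibroblast gene Tagln read 5.10, 6.70, 5.76 and 5.27, with the same pattern of signs; both were chosen for mention after their values were seen. Of the 10 fibroblast and mural cell markers, Tagln among them, all 10 were higher with LPS in WT; 5 were lower under the Bid-/- label, as Hspb1 was, and 5 were higher (Col1a1, Col1a2, Pdgfrb, Thy1 and Fn1). The markers summed to 412.2, 804.5, 851.3 and 781.5, lowest on the WT control array. Hspb1 was also lowest there on the probe set used, but its labelled Bid-/- LPS value, 4.46, was close to that control, 4.38. On its other probe set Hspb1 read 4.45, 4.92, 4.82 and 4.39, lowest on the labelled Bid-/- LPS array. The part of fibroblast and mural cells in the Hspb1 values was not tested.

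Mitochondrial chaperones did not pass. Hspd1 (HSP60) differed by -0.45 and -0.14 and Hspe1, its HSP10 lid, by 0.08 and -0.29; Hspa9, the mitochondrial HSP70, differed by -0.20 and -0.07. A dimmer probe set gave -0.25 and -0.18 for Hspd1, and another gave 0.09 and -0.25 for Hspe1. Hspd1 and Hspe1 are transcribed away from each other, and their windows overlap, so they share a heat shock element, the alternating GAA and TTC units bound by Hsf1. In its form with 3 units (GAANNTTCNNGAA or TTCNNGAANNTTC) it was in 4 member windows, of Hspd1, Hspe1 and Hsph1, and in 0.603% of all windows. The shared stretch is shown because the 2 genes differed in sign in WT on the deposited scale, with this element between them. That sign rests on a difference of 0.08 for Hspe1. After quantile normalization all 3 mitochondrial chaperones were below 0 in WT.

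Hspe1, chr1:55088044-55088086, + strand, element ending 76 bases before the Hspe1 start: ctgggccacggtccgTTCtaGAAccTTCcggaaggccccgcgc

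**Figure D3:**
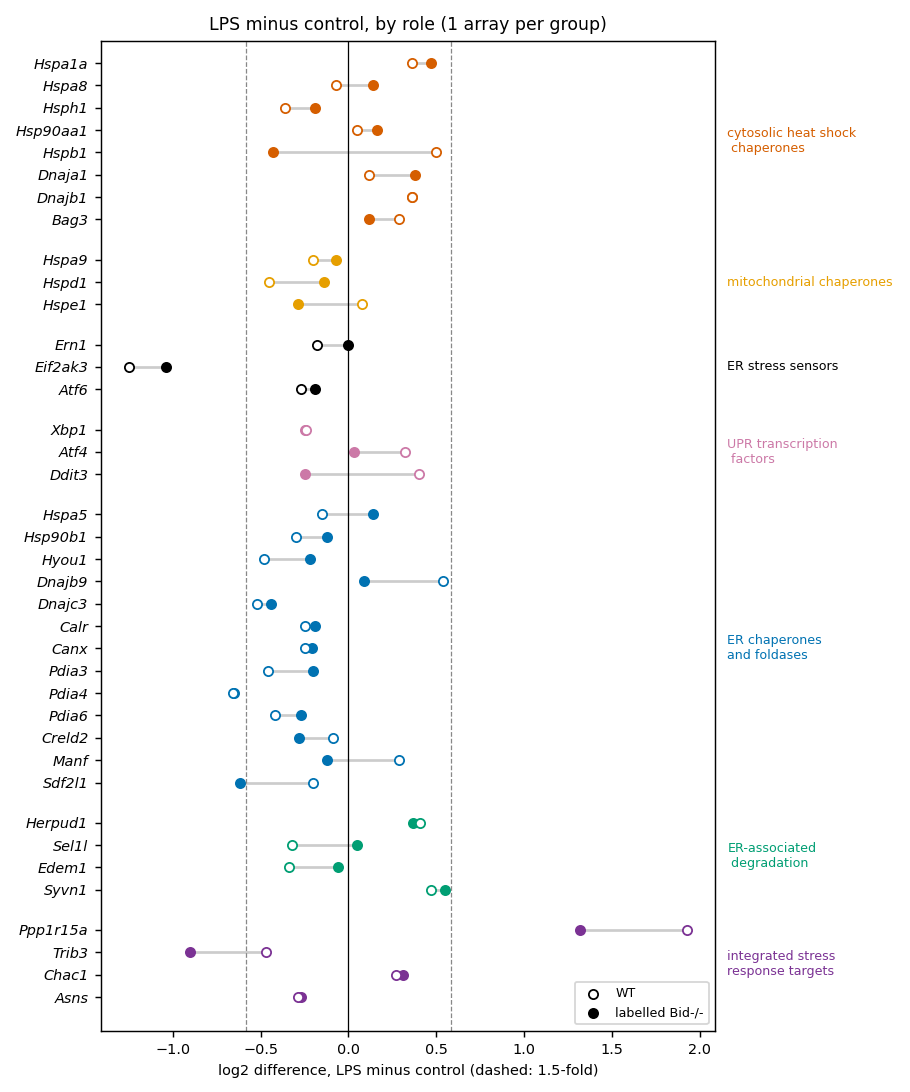
LPS minus control on the log2 scale for the 38 members by role, open circles for WT and filled circles for the arrays labelled Bid-/-, 1 array per group; dashed lines mark 1.5-fold. ER chaperones sit mostly left of 0 (11 of 13 under each label) and cytosolic heat shock chaperones mostly right of it (6 of 8).

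Across all 38 members the median LPS difference was -0.19 in WT and -0.13 under the Bid-/- label, with 23 genes below 0 each time (60.5%). All genes had medians of -0.05 and -0.10 with 54.7% and 60.1% below 0, so that under the Bid-/- label the share of members below 0 was near that of all genes. After removal of the intensity trend the median under the Bid-/- label was 0.01, so its sign is not settled, while in WT it stayed between -0.23 and -0.14.

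Of 168 further genes of these pathways, listed by function, 158 had a value and 148 were tested. In the additive fit 2 rose and 0 fell, both in the integrated stress response. Gadd45a, a growth arrest and DNA damage gene, read 6.12, 8.86, 6.43 and 8.76 (2.74 and 2.33 higher, limma adjusted p = 0.0265). Slc7a11, the cystine importer xCT and an ATF4 and NRF2 target, read 9.02, 11.01, 9.64 and 11.39 (1.99 and 1.75 higher, limma adjusted p = 0.0272). None passed among 32 other chaperones and co-chaperones, most of them cytosolic, or among 8 subunits of the TCP1 ring and 9 mitochondrial genes. The same held for 31 ER folding and secretion genes, 19 ERAD genes and 15 UPR regulators.

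The 31 further ER folding and secretion genes had LPS medians of -0.21 in WT and -0.28 under the Bid-/- label, with 23 and 29 below 0. Over the 3 other scalings these were -0.18 to -0.10 and -0.26 to -0.15. Like the 13 ER chaperones above, they lay below the median of all genes on every scale. Ero1a, the oxidase that recharges disulfide isomerases, was an exception at 0.64 under both labels, and Ppp1r15b, the constitutive partner of Ppp1r15a, was 0.56 and 0.96 higher; neither passed, and both were picked after their values were seen.

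Between the labels without LPS, 1 member was at least 1.5-fold higher on the array labelled Bid-/-, against 1.45% of all genes, and 0 at least 1.5-fold lower, against 0.44%. The member was Trib3, 6.61 against 5.78, a difference of 0.83. Ppp1r15a, just under the threshold, was 0.58 higher, Hspb1 0.51 and Ddit3 0.46. All 4 integrated stress response targets were above 0 (3, with 1 at 0, after quantile normalization). The 13 ER chaperones ran from -0.20 to 0.05, with a median of -0.08 and 11 below 0. All genes had a median of 0.01, with 5632 of 10909 above 0 and 45.8% below 0.

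With LPS no member was 1.5-fold apart between the labels, in either direction, against 4.69% of all genes higher and 6.07% lower. Of those genes 43.6% were higher, or 45.7% to 59.8% under the 3 other scalings. The members ran from -0.56 for Manf to 0.56 for Ern1. Herpud1 was lower under the Bid-/- label both without and with LPS (-0.48 and -0.52), Ern1 higher in both (0.38 and 0.56), Eif2ak3 higher in both (0.24 and 0.45) and Trib3 higher in both (0.83 and 0.40). The additive limma fit called 0 of 38 members for the label, and 0.0% of the 11326 genes; these were the 4 members with an unadjusted p under 0.05, against 6.26% of all genes, and their adjusted p was 0.623 each. Trib3 was called after removal of the intensity trend, alone or with the gene span trend, or with zero residuals raised to the rounding error.

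Differences between the LPS arrays were ordered in part by the length of the gene. Spearman's rho between the difference and the gene's span was 0.458 over the 38 members and 0.395 over 11301 genes; without LPS it was -0.159 and 0.140. These are descriptions of points that share the same 2 arrays. The 10 shortest members, 1.65 to 4.17 kb, had a median of -0.37 with LPS and 7 of 10 below 0, among them Manf, Sdf2l1 and Hspe1. The 10 longest, 19.66 to 164.13 kb, had a median of 0.09 and 8 of 10 above 0. The LPS difference in WT went the opposite way with span over the members, with rho -0.641, against -0.192 over all genes. Under the Bid-/- label rho was -0.213 over the members and 0.095 over all genes, which is of opposite sign. Ppp1r15a, which rose with LPS, spans 3.35 kb, and Eif2ak3, which fell, spans 60.76 kb. Both still passed the LPS fit with the intensity and gene span trends removed. The part of gene span in their LPS differences, and in the label differences of Manf, Sdf2l1, Hspe1 and Ern1, was not tested.

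**Figure D4:**
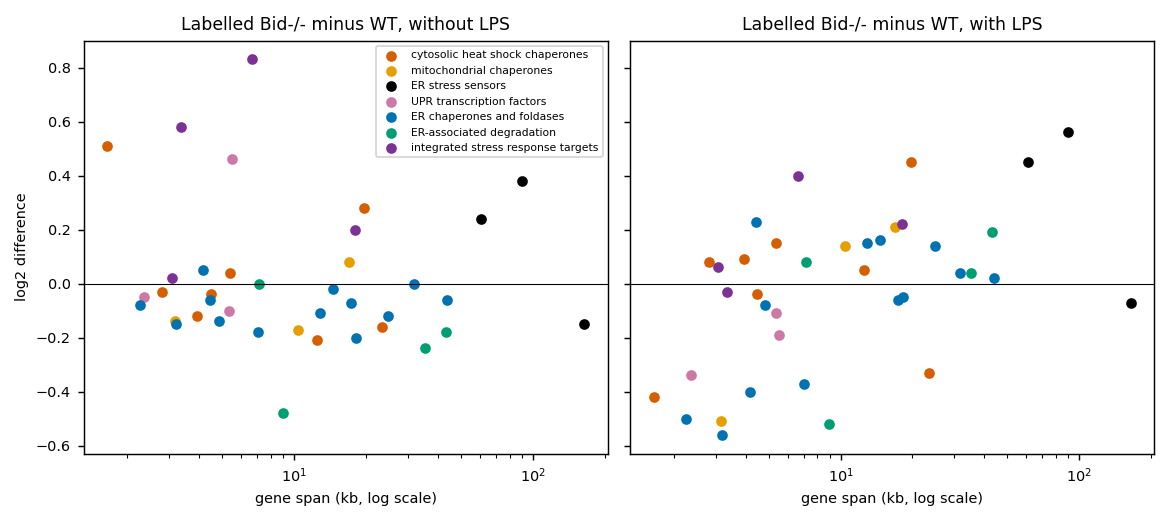
Labelled Bid-/- minus WT on the log2 scale against gene span (kb, log axis) for the 38 members, without LPS (left) and with LPS (right), 1 array per group. With LPS the shortest genes lie mostly below 0 and the longest mostly above it (medians -0.37 and 0.09); without LPS they do not separate (-0.04 and -0.09).

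**Figure D5:**
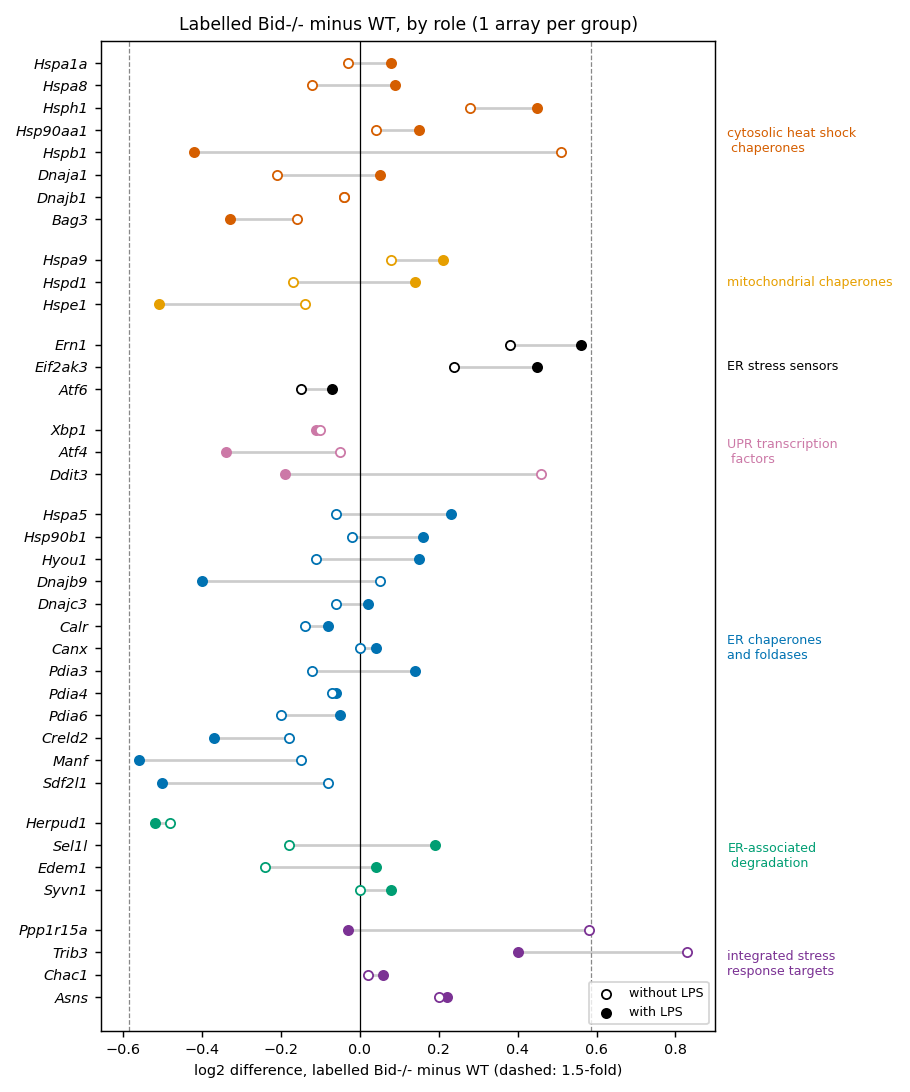
Labelled Bid-/- minus WT on the log2 scale by role, open circles without LPS and filled circles with LPS, 1 array per group; dashed lines mark 1.5-fold. Trib3 without LPS (0.83) is the only point outside the lines, and Herpud1 is low and Ern1 high in both states.

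The LPS difference under the Bid-/- label minus that in WT was at least 1.5-fold lower for 3 members, against 6.06% of all genes, and higher for 0, against 3.26% (35.0% of these genes were higher, or 39.1% to 50.1% under the other scalings). They were Hspb1 (-0.93), Ddit3 (-0.65) and Ppp1r15a (-0.61). Ppp1r15a was under the threshold in each of the 3 other scalings (-0.58, -0.58 and -0.55), and Hspb1 is not counted with a floor of 6. Without LPS all 3 were higher under that label, by 0.46 to 0.58, and that control array enters both measures. With LPS they were 0.42, 0.19 and 0.03 below WT. The median over members was 0.07, against 0.00 for all genes. With 1 array per group this difference was not tested.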

How the data were processed

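The authors deposited 1 table of log2 expression for 28944 probe sets on 4 Mouse Gene 1.0 ST arrays. Per the submitters' processing notes, the tools were RMA, Partek 6.2 and the Affymetrix Expression Console; their roles are not stated there. The log base was taken from the values (2 decimals) and is not written in the file. The 4 arrays had medians of 4.24 to 4.28 and did not share one distribution, and a further quantile normalization moved counts of calls. The number of arrays limits the precision.

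Probe sets were named from the platform annotation: 21789 had 1 symbol, 1621 several and 5534 none; the last 2 kinds were not used. For genes with several probe sets the highest mean was kept (19938 genes). A gene entered a comparison when an array compared reached 4.26. Sizes were counted at 1.5-fold. The additive model of label and LPS was fitted to 11326 genes with limma 3.58.1 in R 4.3.3 (eBayes with trend, Benjamini-Hochberg over all genes, threshold 0.05). It has 1 residual degree of freedom, which comes from the difference of response, so genes that respond unequally are penalised. The labels do not say whether arrays came from separate cultures, so p-values measure only the spread between these arrays.

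Members and lists were chosen with earlier results of these data known. Genes named were all members with a value, and further pathway genes that passed the LPS fit or were 2-fold in both labels; others are marked as picked after their values were seen. Promoters and gene spans are from RefSeq (GRCm38.p6). Alternatives covered the floor, scaling, probe set choice, fold size and the variance model.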

Additional observations from a re-analysis of the deposited data

Results flagged for a closer look

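For 2 members the LPS difference had opposite signs under the labels and the gap was at least 1.5-fold. Hspb1 was 0.50 higher in WT and 0.43 lower on the arrays labelled Bid-/-, a gap of -0.93. Ddit3 was 0.40 higher and 0.25 lower, a gap of -0.65. With 1 array per group neither gap was tested, and both control arrays enter it.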

How the results depend on the processing

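No alternative run turned the direction of a called member. With LPS in WT, the count of members at least 1.5-fold higher went from 1 to 2 (Dnajb9 added) after removal of the intensity trend, alone or with the gene span trend. The count lower went from 2 to 1 with a floor of 6 (Pdia4 left), and to 1 (Eif2ak3 left) with both trends removed, the mean of probe sets or a 2-fold threshold. On the arrays labelled Bid-/- the count higher was 2 under quantile normalization or without the intensity trend (Syvn1 added) and 3 without both trends (also Hspa1a). The count lower went from 4 to 2 (Eif2ak3 and Trib3) without the intensity trend or both, and to 1 at 2-fold. At 2-fold, 0 members were higher for the label without LPS and 0 lower in response. In response, the count lower went from 3 to 2 under the 3 scalings (Ppp1r15a lost) and with a floor of 6 (Hspb1 lost).

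In the additive limma fit, 0 members rose with no floor or with no variance trend, and 3 rose (Hspa1a, Syvn1 and Ppp1r15a) with zero residuals raised to the rounding error or under the 3 scalings. With no floor or a floor of 6, 0 members fell; 3 fell (Eif2ak3, Pdia4 and Trib3) with residuals raised, under quantile normalization or with both trends removed, and 2 (Eif2ak3 and Trib3) without the intensity trend. Over all genes, 190 rose and 177 fell; these were 0 and 0 with no floor, 153 and 92 with no variance trend, 412 and 539 with a floor of 6, 947 and 1910 with residuals raised, 810 and 1118 after quantile normalization, 1071 and 1379 without the intensity trend and 1176 and 1143 without both. For the label, 1 member (Trib3) was higher with residuals raised, without the intensity trend or without both, among 186, 205 and 96 genes. In the main fit 169 genes had a residual of 0. Raising the residuals took the prior degrees of freedom, the weight eBayes gives to the spread shared by genes, from 3.074 to infinite. Why the counts moved in the other runs was not tested. The labels carry no replicate numbers to pair arrays by; the additive fit compares LPS with control within each label. Genes near the floor, such as Hspb1, and Eif2ak3 on the WT LPS array, have the least signal over background.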
